A study of Mus musculus with 106 samples.

Results

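Neuronatin (Nnat) and 9 other imprinted growth genes were read in 11 mouse tissues kept at 10 °C or 34 °C and at 22 °C. The 10 genes were Nnat, Peg3, Mest, Dlk1, Igf2, H19, Cdkn1c, Plagl1, Grb10 and Meg3, and their rows were taken by symbol from 4 tables of raw counts. All 10 were found in the tables of the 34 °C experiment with quadriceps (23393 genes), of bone marrow (23420 genes) and of spinal cord (23420 genes). The table of the other 8 tissues at 10 °C lists 21647 genes and holds 8 of the 10. H19 and Meg3 were not analysed there. The genes were chosen with earlier results of these same counts in view, in which several of them, Nnat above all, differed between temperatures. Their temperature differences are therefore given as a description, with a standard error (SE) and with no p-value.

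The mice were male wild-type C57BL/6J, 8 weeks old at the start. The cold group stood at 10 °C for 2 weeks after steps of 5 days at 18 °C and at 14 °C, and its labels give 11 weeks of age. The warm group stood at 34 °C for 4 weeks, and the labels give 12 weeks for it and for quadriceps. Controls stayed at 22 °C. At 10 °C the tissues were interscapular brown fat (iBAT), inguinal subcutaneous white fat (ingSAT), perigonadal visceral white fat (pgVAT), quadriceps, ileum, liver, spleen, brain and hypothalamus with 3 libraries a group, bone marrow with 6 and spinal cord with 5. At 34 °C they were iBAT, quadriceps, ileum, liver and brain with 3 libraries a group. Quadriceps had 6 control libraries, which both of its comparisons used because the sample labels do not tie them to an experiment. Mice of the cold and the warm experiment, controls included, came from different suppliers, so these 6 controls may mix both. By the wording of the paper's methods, cold and warm quadriceps also differ in library kit, so the controls may mix kits too. Column headers split them into 3 and 3. With the 3 that share the header of the treated columns, the log2 fold change of Nnat in quadriceps at 10 °C was -2.84, still called lower, and that of Mest at 34 °C was 0.77, still called higher. A library pooled 2 mice, except in bone marrow and spinal cord, where it was 1 mouse, and in iBAT of the warm experiment, where only 1 library of the 34 °C group was a pool.

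Imprinted genes are expressed mainly from the copy inherited from 1 parent, which a methylation mark set in the germ line decides. Many of them act on fetal growth, are switched down after birth, and stay on in the brain, in endocrine tissue and in fat. Nnat, Peg3, Mest, Dlk1, Igf2 and Plagl1 are known to be expressed from the paternal copy, and H19, Cdkn1c and Meg3 from the maternal copy. Grb10 is maternal in most tissues and paternal in neurons. Counts per gene do not separate the parental copies, so imprinting itself was not measured.

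Positions are on GRCm38 with the GENCODE M21 annotation. Nnat spans chr2:157560078-157562522 on the plus strand, inside an intron of Blcap, which spans chr2:157556362-157571274 on the minus strand, and the exons of the 2 genes share 0 bases. Peg3 spans chr7:6703892-6730431, Mest chr6:30723547-30748465, Plagl1 chr10:13060504-13131694 and Grb10 chr11:11930508-12038683. H19 (chr7:142575529-142578143), Igf2 (chr7:142650766-142666816) and Cdkn1c (chr7:143458339-143461050) are neighbours on chromosome 7, and Dlk1 (chr12:109452823-109463336) and Meg3 (chr12:109541001-109571726) on chromosome 12. H19 and Meg3 are long non-coding RNAs and the other 8 code for proteins. Of the exonic bases of Igf2, 62.8% also belong to the overlapping gene model Gm49394 on the same strand, and 23.1% of those of Mest lie opposite Copg2, so the counts of Igf2 and Mest are uncertain to that extent.

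Upstream sequences are shown for Nnat, Mest and Plagl1, the members called lower in the cold in more than 1 tissue, and for Peg3, which was lower in iBAT at both temperatures. They come from RefSeq (GRCm38.p6), which has an entry for 8 of the 10 genes, and cover up to 250 bases before the start, read 5′ to 3′ on the strand of the gene, without bases that GENCODE marks as UTR. Exons of transcripts with no coding sequence were left in, 180 bases of Blcap in the window of Nnat, 97 bases of Plagl1 in its own, and 15 bases of Peg3 and Usp29 in that of Peg3. Capitals mark a match, on either strand, to the GC box with the letters GGGCGG, to the TATA box with the letters TATAAA, to the cAMP response element with the letters TGACGTCA or to the PLAGL1 site with the letters GGGGCCCC.
Nnat chr2:157559828-157560077 plus: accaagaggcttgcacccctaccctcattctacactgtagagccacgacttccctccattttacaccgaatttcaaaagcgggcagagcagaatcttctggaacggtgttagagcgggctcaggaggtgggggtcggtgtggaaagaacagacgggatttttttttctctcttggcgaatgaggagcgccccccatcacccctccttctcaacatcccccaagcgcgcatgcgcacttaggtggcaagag
Mest chr6:30737800-30738049 plus: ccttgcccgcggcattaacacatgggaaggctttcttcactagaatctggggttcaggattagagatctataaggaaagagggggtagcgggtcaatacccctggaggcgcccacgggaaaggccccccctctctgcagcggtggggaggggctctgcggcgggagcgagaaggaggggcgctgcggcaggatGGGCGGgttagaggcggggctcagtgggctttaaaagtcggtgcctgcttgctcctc
Plagl1 chr10:13090582-13090787 plus: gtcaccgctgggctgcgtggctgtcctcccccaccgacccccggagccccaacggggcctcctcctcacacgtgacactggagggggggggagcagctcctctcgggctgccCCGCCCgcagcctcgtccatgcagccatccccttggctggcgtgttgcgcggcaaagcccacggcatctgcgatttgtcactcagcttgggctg
Peg3 chr7:6730422-6730582 minus: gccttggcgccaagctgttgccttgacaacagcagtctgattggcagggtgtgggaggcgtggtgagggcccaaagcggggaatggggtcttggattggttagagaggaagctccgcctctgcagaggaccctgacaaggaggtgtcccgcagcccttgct
The 250 bases before Nnat held none of the 4 motifs. The window of Mest held 1 GC box and that of Plagl1 held 2, of which 1 lies in the stretch shown. GC boxes occur in 32.7% of the 32851 windows of this length, TATA boxes in 12.4%, cAMP response elements in 1.55% and the PLAGL1 site in 0.889%. The whole window of Peg3 held 1 cAMP response element and 1 PLAGL1 site, both in the part not shown, where GENCODE places the first exon of Usp29 on the other strand.

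Libraries held 4262403 to 62880248 counts, and the smallest belonged to pgVAT at 22 °C. Marker genes of the labelled tissue were present in each tissue that had a list, such as 5 hepatocyte genes that summed to 65098 CPM (counts scaled to the size of each library) or more in liver and 5 neuron genes that summed to 2459 CPM or more in brain. Some libraries also held markers of a neighbouring or foreign tissue. The brain library of 22 °C replicate 2 had hepatocyte genes at 66658 CPM against 2.47 to 11.6 in the other 5, with albumin (Alb) alone at 50394 CPM. Epididymis genes summed to 20337 and 26094 CPM in replicates 1 and 3 of pgVAT at 10 °C, to 3.80 in replicate 2 and to 754 to 2583 at 22 °C. In iBAT of the warm experiment, skeletal muscle genes summed to 4232 CPM in 22 °C replicate 2 and to 2.80 and 8.08 in the other 2 controls. The 34 °C libraries of iBAT all held them, at 3311, 894 and 1020 CPM. In quadriceps, 1 control had pancreas acinar genes at 2002 CPM, while the other 5 controls had at most 9.75. In spleen these genes summed to 1.01 to 1775 CPM at 22 °C and 3.30 to 3581 at 10 °C. Epididymis genes reached 161 CPM in quadriceps at 10 °C and at most 0.125 in its controls. In iBAT they summed to 3.86, 4.01 and 38.9 CPM at 10 °C and 0.417 to 0.615 at 22 °C, with 4 of 7 higher. Skeletal muscle genes in ingSAT summed to 1048 to 2681 CPM at 22 °C and 24.9 to 1602 at 10 °C. Where marked libraries are left out below, those of spleen, quadriceps, ingSAT and iBAT of the cold experiment were kept.

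Each tissue was compared with its own 22 °C libraries by a quasi-likelihood F-test in edgeR, and calls needed p at or under 0.05, unadjusted, with a fold over 1.5. Over the 11 tissues at 10 °C the members gave 81 tested pairs of gene and tissue of the 94 listed. Of these, 15 were called lower and 0 higher by edgeR, while at the same p without a limit on the fold 18 were lower and 1 higher, and DESeq2 called 0 higher too. A call with a Benjamini-Hochberg adjusted p under 0.05 was met by 4. Of all genes tested in the same comparisons, 2.70% were called lower and 2.24% higher, or 0.650% and 0.833% with the adjusted p. Over the 5 tissues at 34 °C, 1 pair was called lower and 5 higher of the 40 tested, with 1 and 3 by the adjusted p. There the shares of all genes tested were 2.17% lower and 3.15% higher, or 1.33% and 1.83% with the adjusted p. The members were picked from these contrasts, so nothing is read from their counts against those shares. In bulk tissue, fewer cells of a type and less RNA per cell cannot be told apart.

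Most calls came from fat. In ingSAT 5 of 7 members tested were called lower and 0 higher, where 9.14% of all genes tested were lower and 7.20% higher. The median log2 fold change of the members there was -1.15, against -0.01 over all genes tested. In pgVAT 3 of 7 were lower, where 3.47% of all genes were lower and 4.46% higher, and the medians were -1.18 and 0.03. In iBAT 2 of 7 were lower, where 7.24% of all genes were lower and 6.00% higher. Ileum had 2 of 7 lower (all genes 1.26% lower, 1.44% higher), liver 2 of 6 (2.54% and 0.740%) and quadriceps 1 of 9 (0.642% and 2.70%).

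In spleen, bone marrow, spinal cord, brain and hypothalamus at 10 °C, 0 members were called by edgeR, 0 at the same p without a limit on the fold and 0 by DESeq2. The shares of all genes called were 2.04% lower and 0.638% higher in spleen, 0.647% in either direction in bone marrow, 0.0904% lower and 0.181% higher in spinal cord, 2.45% lower and 0.270% higher in brain, and 0.179% lower and 0.399% higher in hypothalamus. At 34 °C, iBAT had 1 member lower and 4 higher of 10, where 7.19% of all genes were lower and 12.2% higher. Quadriceps at 34 °C had 1 of 9 higher, where 0.836% were lower and 0.409% higher. At 34 °C the quasi-likelihood test called 0 members in ileum (all genes 1.26% lower, 1.57% higher), liver (1.61% and 1.77%) and brain (0.150% and 0.0429%), and without a limit on the fold 1 was lower in liver. DESeq2 and edgeR's exact test called Igf2 higher in ileum, both other filters on low counts brought a call of Igf2 in liver, and scaling by library size only brought one of Peg3 in liver, all given with the genes.

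**Figure D1:**
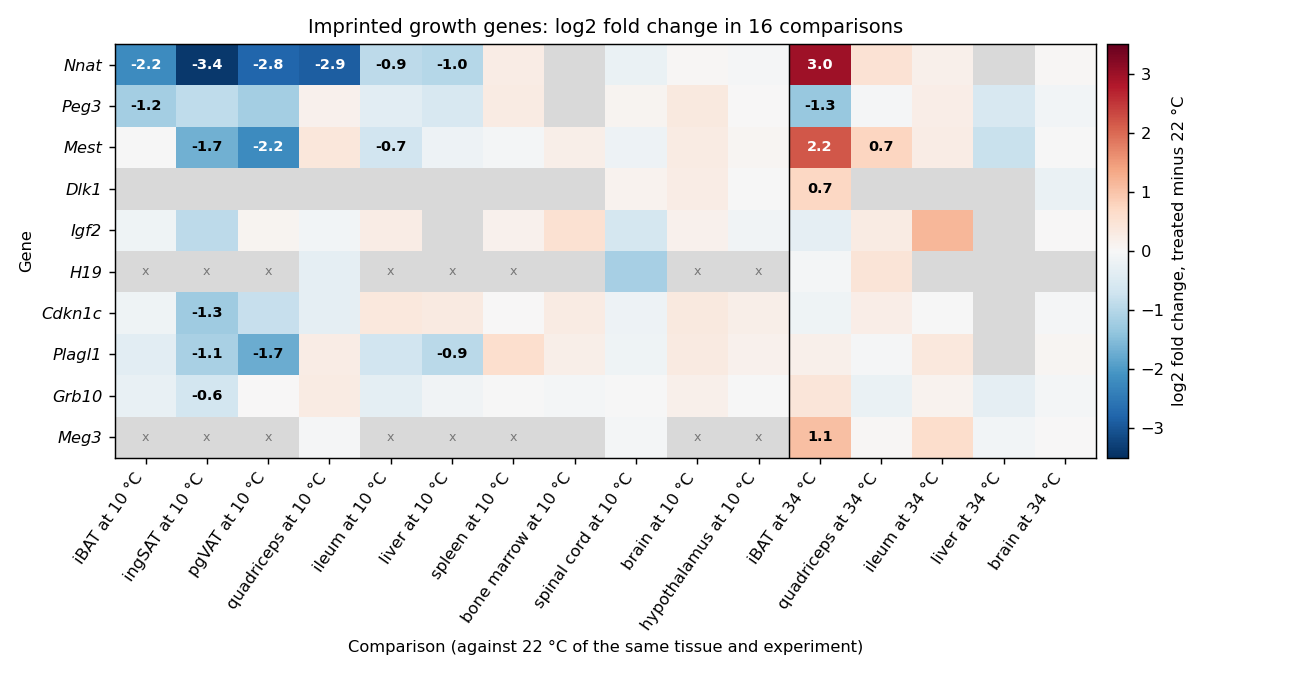
Log2 fold change of the 10 imprinted growth genes (rows) in 16 comparisons (columns, 10 °C left of the line and 34 °C right of it), treated minus 22 °C, on a scale from blue (lower) to red (higher). A number stands where the gene was called, gray marks a gene below the filter on low counts, and gray with a cross a gene not analysed in that table; the numbers in blue gather in the fat depots at 10 °C and those in red in iBAT at 34 °C.

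Nnat codes for a small proteolipid of the endoplasmic reticulum membrane, known from developing neurons, pancreatic beta cells and fat. At 22 °C its level in the table of 8 tissues was highest in pgVAT, at 1053 ± 246 CPM (SD, n = 3), followed by ingSAT at 979 ± 679 and hypothalamus at 704 ± 69.8. Neighbours among these 3 overlapped. Brain had 181 ± 56.6 CPM, iBAT 43.2 ± 21.6, ileum 9.11 ± 1.87, liver 4.13 ± 0.328 and spleen 3.66 ± 0.170, and from hypothalamus downward no library of a tissue reached into the range of the next.

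Of the tissues tested, ingSAT showed the widest difference of Nnat. There the 22 °C libraries had 519, 658 and 1759 CPM and the 10 °C libraries 111, 78.1 and 94.2, a log2 fold change of -3.37 ± 0.49. The mean at 22 °C was 10.4 times that at 10 °C, and the highest cold library lay far below the lowest control. Without 22 °C replicate 3, the library with 1759 CPM, the log2 fold change was -2.61. In pgVAT the 22 °C libraries had 772, 1163 and 1225 CPM and the 10 °C libraries 161, 215 and 82.1, a log2 fold change of -2.79 ± 0.47 and a ratio of means of 6.90. The groups again did not overlap. Without the 2 cold libraries of pgVAT that held epididymis genes, the log2 fold change was -2.27 ± 0.45 with a call. That fit has 1 cold library, replicate 2, against 3 controls, so its SE holds no spread of the cold group, which is taken to vary like the controls. The same holds for every other value given without these libraries.

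The 3 fat depots shared the direction. iBAT at 22 °C had 19.1, 49.8 and 60.8 CPM of Nnat and at 10 °C 10.00, 9.52 and 9.03, a log2 fold change of -2.19 ± 0.36. The cold libraries were close to each other and below every control. The calls in iBAT and ingSAT were also met with the adjusted p, and the call in pgVAT was not.

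Quadriceps held little Nnat, with 1.38, 6.63, 5.53, 8.69, 3.77 and 2.13 CPM at 22 °C and 0.740, 0.933 and 0.214 at 10 °C. The log2 fold change was -2.89 ± 0.65, on 12 to 56 counts per cold library, and the groups did not overlap. The lowest control, at 1.38 CPM, was the library with pancreas acinar genes. Ileum had 8.40, 7.71 and 11.2 CPM at 22 °C and 4.57, 4.76 and 5.26 at 10 °C, a log2 fold change of -0.91 ± 0.18. Liver had 3.92, 3.97 and 4.51 CPM at 22 °C and 2.58, 1.89 and 1.76 at 10 °C, a log2 fold change of -1.0 ± 0.20. These liver values rest on 33 to 76 counts per library. In both organs every cold library was below every control, so Nnat was called lower in 6 of 11 tissues at 10 °C, and in 2 of them with the adjusted p.

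The nervous system did not show this. Hypothalamus had 674, 783 and 654 CPM of Nnat at 22 °C and 679, 653 and 701 at 10 °C, a log2 fold change of -0.05 ± 0.06. Spinal cord had 114, 114, 134, 119 and 138 CPM at 22 °C and 118, 106, 95.3, 75.1 and 129 at 10 °C, with a log2 fold change of -0.24 ± 0.12. Brain had 194, 119 and 230.2 CPM at 22 °C and 195, 189.6 and 179 at 10 °C, with a log2 fold change of 0.05 ± 0.25. The groups overlapped in all 3. The brain control at 119 CPM was the library with hepatocyte genes, and without it the log2 fold change was -0.18 ± 0.08 with no call.

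Spleen had 3.59, 3.85 and 3.53 CPM of Nnat at 22 °C and 3.14, 5.04 and 5.10 at 10 °C, with a log2 fold change of 0.27 ± 0.23 and overlapping groups. Each bone marrow library had 0 or 1 count of Nnat, too few to test, and a difference was not detectable at this depth.

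**Figure D2:**
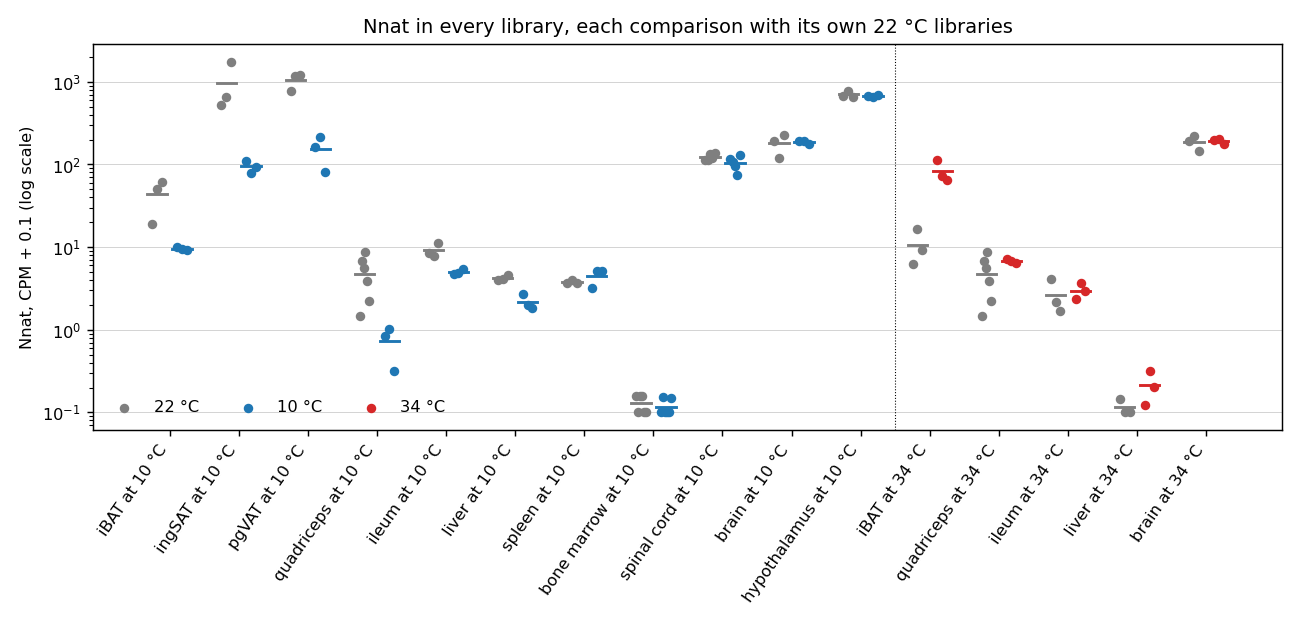
Nnat in every library (points) with the group mean (bar), in CPM plus a small constant on a log axis, for 11 tissues at 10 °C and 5 at 34 °C beside their own 22 °C libraries. Cold libraries (blue) lie below all controls (gray) in the 3 fat depots, quadriceps, ileum and liver, and warm libraries (red) lie above all controls in iBAT.

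At 34 °C iBAT showed the opposite direction. Its 22 °C libraries had 6.22, 16.5 and 9.03 CPM of Nnat and the 34 °C libraries 113, 72.7 and 64.4, a log2 fold change of 2.98 ± 0.38 and a ratio of means of 7.90. Every warm library was above every control, and the call was met with the adjusted p. Without the control that held muscle genes, the log2 fold change was 3.44 ± 0.30. In that fit muscle goes with temperature, because the controls left held almost no muscle genes and the warm libraries held 894 to 3311 CPM. The iBAT controls of the 2 experiments come from separate tables and preparations, and their levels are not compared.

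The other tissues at 34 °C gave no call of Nnat. Quadriceps had 7.0, 6.77 and 6.37 CPM at 34 °C, within the range of the same 6 controls, with a log2 fold change of 0.51 ± 0.44. Ileum had 3.99, 2.08 and 1.6 CPM at 22 °C and 2.23, 3.55 and 2.86 at 34 °C, with a log2 fold change of 0.17 ± 0.38. Brain had 192, 222 and 144 CPM at 22 °C and 198, 202 and 176 at 34 °C, with a log2 fold change of 0.04 ± 0.12. Liver of the warm experiment had 0.0470, 0 and 0 CPM at 22 °C and 0.0242, 0.219 and 0.105 at 34 °C, at most 10 counts in a library and below the filter. The groups overlapped in all 4 of these tissues.

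Mest (also called Peg1) codes for a protein with an alpha/beta hydrolase fold and is known as a marker of fat depots that are expanding. In pgVAT it had 74.1, 38.7 and 119 CPM at 22 °C and 15.3, 20.8 and 14.4 at 10 °C, a log2 fold change of -2.19 ± 0.42. No cold library reached a control, and with the single cold library that lacked epididymis genes the value was -1.87 ± 0.64. In ingSAT it had 13, 6.24 and 36.6 CPM at 22 °C and 6.88, 4.90 and 5.55 at 10 °C, a log2 fold change of -1.69 ± 0.60. There the groups overlapped, and without 22 °C replicate 3, at 36.6 CPM, the log2 fold change was -0.70 and the call was lost. It was also lost without 10 °C replicate 2 or 3. Ileum had 2.39, 2.77 and 2.36 CPM of Mest at 22 °C and 1.45, 1.69 and 1.63 at 10 °C, a log2 fold change of -0.66 ± 0.19 with no overlap, and the call was lost without 22 °C replicate 2.

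In iBAT the level of Mest did not separate the groups at 10 °C, with 2.81 to 3.64 CPM at 22 °C, 2.80 to 3.74 at 10 °C and a log2 fold change of -0.00 ± 0.22. At 34 °C it was higher in iBAT, with 0.773, 1.55 and 1.26 CPM in the controls and 6.08, 6.05 and 4.04 in the warm libraries, a log2 fold change of 2.17 ± 0.33 that was also called with the adjusted p. In quadriceps at 34 °C Mest had 4.52, 2.55 and 2.02 CPM against 2.30, 1.65, 1.6, 1.73, 1.63 and 1.98 in the controls, a log2 fold change of 0.75 ± 0.25. These groups overlapped, and without the warm library at 4.52 CPM the log2 fold change was 0.34 and the call was lost. Brain at 10 °C had 38, 36.8 and 40.1 CPM against 31.9, 27.4 and 34.8 at 22 °C, a log2 fold change of 0.29 ± 0.12 that gave no call, or 0.19 ± 0.09 without the control that held hepatocyte genes.

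Plagl1 (Zac1) codes for a zinc finger transcription factor that is known to act on other genes of the imprinted network. In ingSAT it had 26.9, 22.6 and 47.9 CPM at 22 °C and 15.7, 13.5 and 14.8 at 10 °C, a log2 fold change of -1.15 ± 0.28. In pgVAT it had 79.1, 82.6 and 113 CPM at 22 °C and 26.6, 43.3 and 12.7 at 10 °C, a log2 fold change of -1.73 ± 0.44, or -1.06 ± 0.34 with a call from the single cold library that lacked epididymis genes. Neither depot had an overlap between groups. Liver had 1.63, 2.29 and 1.25 CPM at 22 °C and 0.675, 1.03 and 0.972 at 10 °C, a log2 fold change of -0.93 ± 0.31. That call rests on low counts, and it was lost without 10 °C replicate 1 or without 22 °C replicate 2.

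Ileum had 6.41, 4.00 and 3.81 CPM of Plagl1 at 22 °C and 3.57, 3.26 and 2.01 at 10 °C, a log2 fold change of -0.67 ± 0.29 with no overlap and no call, although edgeR's exact test, DESeq2, both other filters, library size only and the replicate block called it lower. Brain at 10 °C had 14.9, 13.2 and 15.2 CPM against 13.1, 8.62 and 13, a log2 fold change of 0.32 ± 0.20 without a call, and 0.14 ± 0.11 without the library that held hepatocyte genes. In iBAT Plagl1 stayed at 0.586 to 2.96 CPM over both experiments, and the groups overlapped in each.

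Peg3 codes for a large zinc finger protein and was the only member called in the same direction at both temperatures, lower in iBAT each time. At 10 °C its iBAT libraries had 58.9, 119.7 and 81.5 CPM against 183, 139.6 and 268 at 22 °C, a log2 fold change of -1.18 ± 0.29. At 34 °C they had 18.8, 14.5 and 20.2 CPM against 50.0, 35.7 and 47.4, a log2 fold change of -1.32 ± 0.17. The groups did not overlap in either, and both calls were met with the adjusted p. Nnat, in contrast, was lower at 10 °C and higher at 34 °C in the same tissue. In white fat Peg3 varied widely among the controls, from 70.0 to 443 CPM in ingSAT and from 75.8 to 345 in pgVAT, and was not called by the quasi-likelihood test, with log2 fold changes of -0.88 ± 0.57 and -1.18 ± 0.62. DESeq2 called it lower in pgVAT (-1.19).

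Smaller differences of Peg3 left the groups apart without reaching the fold needed for a call under TMM scaling. Liver had 12.9, 16.8 and 15 CPM at 10 °C against 20.8, 20.6 and 25.1, a log2 fold change of -0.57 ± 0.12. Liver of the warm experiment had 2.64, 2.71 and 2.47 CPM at 34 °C against 3.38, 4.03 and 4.23, a log2 fold change of -0.57 ± 0.18. With library size only in place of TMM scaling, both liver values passed, at -0.63 and -0.64, and were called lower. Ileum had 19.8, 21.9 and 17.9 CPM at 10 °C against 27.3, 24.7 and 24.9, a log2 fold change of -0.37 ± 0.10. Spleen went the other way, with 15, 14.9 and 18.6 CPM at 10 °C against 12.1, 14.8 and 12.5, a log2 fold change of 0.29 ± 0.13. In hypothalamus Peg3 stayed between 2699 and 2811 CPM in all 6 libraries.

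Cdkn1c and Grb10 are known to restrain growth: Cdkn1c codes for the cyclin-dependent kinase inhibitor p57 and Grb10 for an adaptor that dampens signalling from the insulin and IGF1 receptors. Cdkn1c in ingSAT had 15.8, 17.4 and 21.7 CPM at 22 °C and 10.3, 5.47 and 7.33 at 10 °C, a log2 fold change of -1.25 ± 0.26 that was also called with the adjusted p. In ileum it was on the other side without a call, with 4.21, 3.74 and 3.45 CPM at 10 °C against 2.97, 2.82 and 3.09 and a log2 fold change of 0.36 ± 0.16. In pgVAT its groups overlapped, at 13.7 to 25 CPM and 6.81 to 16.7 CPM, with a log2 fold change of -0.80 ± 0.41 and no call, and with the replicate block it was -0.85 and called lower.

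Grb10 in ingSAT had 116, 118 and 83.3 CPM at 22 °C and 81.4, 57.2 and 65.9 at 10 °C, a log2 fold change of -0.63 ± 0.19. The groups were apart by a narrow margin, and the call was lost without 22 °C replicate 1 or 2 or without 10 °C replicate 2 or 3. In iBAT at 10 °C it had 30.8, 29.1 and 28.2 CPM against 34.9, 31.3 and 38.5, a log2 fold change of -0.25 ± 0.12. Warm iBAT had 39.1, 28.4 and 34.0 CPM against 26, 27.3 and 21.8, a log2 fold change of 0.44 ± 0.14, which was 0.72 and called higher with library size only. Ileum at 10 °C had 11.3, 11.6 and 9.59 CPM against 16.1, 12.2 and 12.6 and a log2 fold change of -0.33 ± 0.15. In these 3 comparisons the groups were apart and no call was made under TMM scaling, and the same held in brain at 10 °C, with 96.3, 96.9 and 95.0 CPM against 90.6, 72.0 and 94.1 and a log2 fold change of 0.17 ± 0.12.

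**Figure D3:**
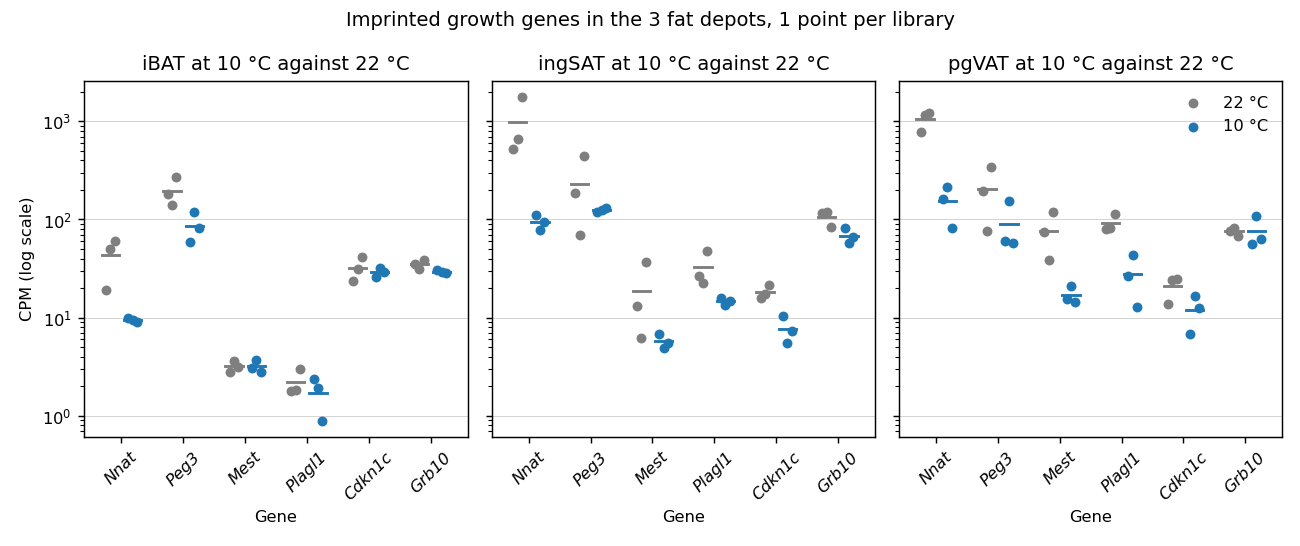
CPM on a log axis of 6 imprinted growth genes in the 3 fat depots, with 1 point per library, 22 °C in gray, 10 °C in blue and a bar at the group mean. Nnat is lower in every cold library in all 3 depots, Mest and Plagl1 separate the groups in pgVAT, Cdkn1c, Plagl1 and Grb10 separate them in ingSAT, and Peg3 and, narrowly and without a call, Grb10 do so in iBAT.

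The ligands Dlk1 and Igf2 were low in most tissues of the adult mice. Dlk1 codes for a transmembrane protein of preadipocytes that is known to hold back fat cell differentiation. It was below the filter on low counts in the 3 fat depots, quadriceps, ileum, liver, spleen and bone marrow at 10 °C. In spinal cord it had 64.1 to 87.7 CPM at 22 °C and 69.6 to 89.5 at 10 °C. Warm iBAT had 7.05, 4.53 and 4.57 CPM against 4.38, 2.59 and 2.79, a log2 fold change of 0.73 ± 0.30. No warm library fell below a control, but the call was lost without 22 °C replicate 2 or 3 or without 34 °C replicate 1. In quadriceps at 34 °C Dlk1 had 2.59, 1.46 and 1.19 CPM, all above the controls at 0.398 to 0.799, and was below the filter. Both other filters and the controls chosen by header let it be tested and called it higher, with log2 fold changes of 1.59, 1.58 and 1.67.

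Igf2 codes for the fetal insulin-like growth factor. It was called in 0 comparisons by edgeR's quasi-likelihood test with the filter used here. In liver at 34 °C it was below that filter, with 14, 19 and 12 counts against 5, 3 and 7 at 22 °C, and with either other filter it was called higher, with a log2 fold change of 1.5. In ileum at 34 °C it had 2.93 to 13.1 CPM against 2.44 to 5.05 at 22 °C, a log2 fold change of 1.16 ± 0.54 that edgeR's exact test and DESeq2 called higher. In iBAT it had 4.99 to 5.88 CPM at 22 °C and 3.69 to 5.78 at 10 °C, and in the warm experiment 11.6 to 18.3 at 22 °C and 9.95 to 12.7 at 34 °C. In spinal cord it ran from 21.6 to 164 CPM at 22 °C and from 38 to 106 at 10 °C. Meninges genes summed to 45.7, 8.04, 20.2, 62.1 and 71.9 CPM in those 5 controls, where Igf2 had 116, 21.6, 31.9, 136 and 164, so the 2 were in the same order within the controls. The part of meninges in the Igf2 values was not tested.

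H19 and Meg3 are non-coding RNAs of the maternal copy, H19 beside Igf2 and Meg3 beside Dlk1. Meg3 in iBAT had 18.9, 24.9 and 17.9 CPM at 22 °C and 56.5, 39.6 and 32.1 at 34 °C, a log2 fold change of 1.05 ± 0.22 that was called with the adjusted p as well. Its groups overlapped in quadriceps at either temperature, with log2 fold changes of -0.05 ± 0.18 at 10 °C and 0.03 ± 0.25 at 34 °C, in spinal cord, with 4087 to 4995 CPM over 10 libraries, and in the brain of the warm experiment, with a log2 fold change of 0.01 ± 0.11.

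H19 was plentiful in quadriceps, where it had 573, 446, 421, 374, 424 and 482 CPM at 22 °C and 695, 599 and 577 at 34 °C, a log2 fold change of 0.46 ± 0.13 with no overlap and no call. At 10 °C it had 339 to 385 CPM there. In iBAT H19 had 1.32, 35.6 and 0.821 CPM at 22 °C and 23.7, 4.81 and 7.41 at 34 °C, with a log2 fold change of -0.07 ± 1.28. The muscle gene Acta1 in the same libraries had 0.368, 1098 and 1.67 CPM at 22 °C and 845, 226 and 234 at 34 °C, so both genes were highest in 22 °C replicate 2. Without that library the log2 fold change of H19 was 3.5 ± 0.76 and it was called higher. The controls left in that fit had Acta1 at 0.368 and 1.67 CPM, below every warm library, so muscle and temperature cannot be told apart there. The part of muscle in the H19 values was not tested.

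**Figure D4:**
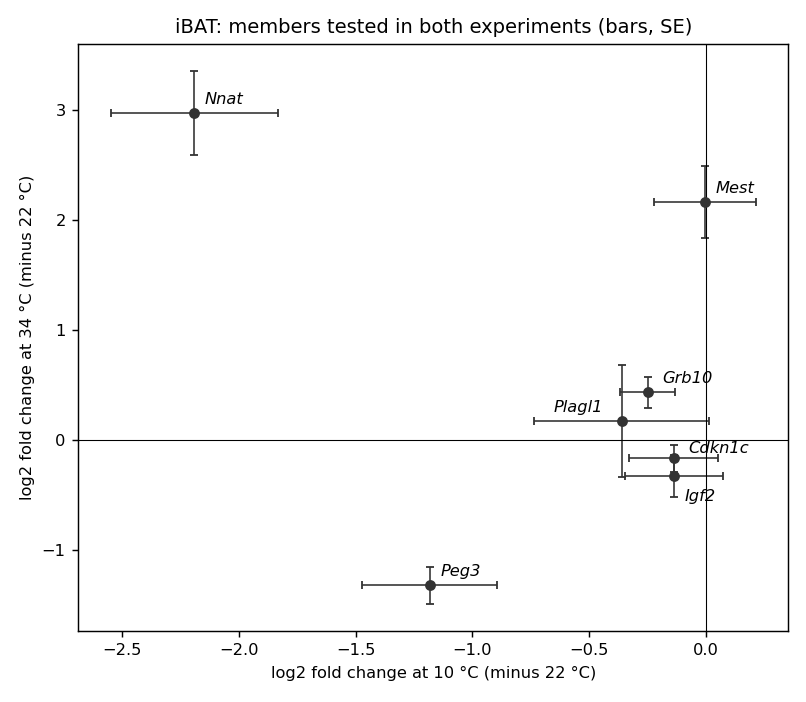
Log2 fold change in iBAT at 10 °C (x axis) against that at 34 °C (y axis), each minus its own 22 °C libraries, for the members tested in both experiments, with SE bars. Nnat lies at -2.19 and 2.98 and Peg3 at -1.18 and -1.32, while the other members lie between -0.36 and -0.00 on the x axis.

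Markers of other cell types also moved with temperature in fat. In ingSAT the 6 markers of adipocyte progenitors and fibroblasts summed to 2090 to 2534 CPM at 22 °C and 1048 to 1691 at 10 °C, with 4 of 6 called lower. Schwann cell markers summed to 74.3 to 145 and 68.2 to 87.8 CPM with 3 of 5 lower, and brown adipocyte markers to 139 to 195 and 2335 to 3001 CPM. None of these markers was at 0 in every library. Within the 22 °C libraries of ingSAT, replicate 3 had the highest Nnat and the lowest progenitor sum, 2090 CPM. Its sums of Schwann cell (74.3 CPM), brown adipocyte (139) and skeletal muscle markers (1048) were also the lowest of the controls. In pgVAT the progenitor sums overlapped, at 894 to 999.7 CPM at 22 °C and 619 to 1050.2 at 10 °C, with 1 of 6 markers lower and 1 higher. Adipocyte markers in pgVAT summed to 18617 to 31072 CPM at 22 °C and were 12250.3, 27997 and 8726 in 10 °C replicates 1, 2 and 3.

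In iBAT at 10 °C, skeletal muscle markers summed to 5649 to 8159 CPM at 22 °C and 2223 to 4682 at 10 °C, with 4 of 5 lower. The progenitor markers summed to 344 to 421 and 266 to 373 CPM there. Brown adipocyte markers summed to 8048 to 12872 CPM at 22 °C and 14269 to 17983 at 10 °C, with 3 of 5 higher. In warm iBAT the progenitor markers summed to 265 to 366 CPM at 22 °C and 420.3 to 497 at 34 °C, with 2 of 6 higher, and the brown adipocyte markers to 10700.5 to 14429 and 5873 to 7257 CPM with 2 of 5 lower. The part of these cell types in the values of the imprinted genes was not tested. In liver at 10 °C, where Nnat was also lower, the 5 neuron markers summed to 8.92 to 11.3 CPM at 22 °C and 9.35 to 13.8 at 10 °C with 0 of 5 called, and none of them was at 0 in every library. Neuron markers in ileum summed to 11.2 to 17.1 CPM at 22 °C and 8.58 to 11.6 at 10 °C with 1 of 5 lower, and enteric neuron markers to 17.1 to 20.8 and 20.1 to 21.1 CPM. In ingSAT neuron markers summed to 3.43 to 12.7 CPM at 22 °C and 3.15 to 3.74 at 10 °C, with 0 called. In pgVAT the sums were 7.35 to 23.6 and 7.95 to 24.2 CPM with 0 called. In iBAT at 10 °C they were 1.23 to 2.59 and 3.24 to 4.28 CPM with 1 higher. Enteric neuron markers in ingSAT summed to 2.84 to 6.53 and 1.70 to 1.99 CPM with 1 lower. In pgVAT these had 1 higher. The part of neurons in the Nnat values was not tested.

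A list of 46 other imprinted genes was read the same way. At 10 °C it gave 309 tested pairs of gene and tissue, of which 15 were called lower (4.85%) and 4 higher (1.29%), beside 2.70% and 2.24% of all genes tested. With the adjusted p the counts were 4 and 1. At 34 °C it gave 133 pairs, of which 4 were lower (3.01%) and 7 higher (5.26%), beside 2.17% and 3.15%, and 3 and 7 with the adjusted p. Most calls lay in fat, where more of all genes were also called than in any other tissue. At 10 °C iBAT had 3 lower and 0 higher of 26 tested (all genes 7.24% lower, 6.00% higher). There ingSAT had 5 lower and 2 higher of 30 (9.14% and 7.20%), and pgVAT 4 lower and 2 higher of 31 (3.47% and 4.46%). At 34 °C iBAT had 3 lower and 7 higher of 27 (7.19% and 12.2%). The list was chosen with earlier results known and is no independent support for a direction.

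Blcap, the gene in whose intron Nnat lies, was lower in ingSAT, with 138 ± 16.8 CPM at 22 °C and 72.9 ± 5.67 at 10 °C and a log2 fold change of -0.92 ± 0.13. It was lower in pgVAT, with a log2 fold change of -1.03 ± 0.29 that became -0.58 ± 0.34 without a call when the libraries with epididymis genes were left out and 1 cold library remained. In warm iBAT it was higher, from 107 ± 15 to 231 ± 9.78 CPM, a log2 fold change of 1.11 ± 0.12. Ndn (necdin), a MAGE family protein of the Prader-Willi region, was lower in ingSAT (log2 fold change -0.62 ± 0.17) and pgVAT (-0.84 ± 0.25) and higher in warm iBAT (1.18 ± 0.09). Its neighbour Magel2 was higher in warm iBAT, from 0.569 ± 0.405 to 3.40 ± 0.0895 CPM, a log2 fold change of 2.59 ± 0.55. In warm iBAT the calls of these 3 genes were met with the adjusted p.

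Gnas, which codes for the stimulatory G protein subunit that couples adrenergic receptors to cAMP, was lower in iBAT at both temperatures. It had 138 ± 12.7 CPM at 22 °C and 56.5 ± 1.31 at 10 °C, a log2 fold change of -1.29 ± 0.11, and 3967 ± 620 CPM at 22 °C and 2533 ± 312 at 34 °C in the other table, a log2 fold change of -0.65 ± 0.15. The 2 tables count this gene very differently and their levels are not compared. Slc38a4, an amino acid transporter, was lower in iBAT at 10 °C with 8.95 ± 2.98 and 3.73 ± 0.763 CPM and a log2 fold change of -1.24 ± 0.27. Igf2r, the receptor that clears IGF2, was lower in ingSAT (-0.99 ± 0.33, groups overlapping) and higher in warm iBAT (0.84 ± 0.11). Mcts2 was higher in ingSAT (0.99 ± 0.16) and lower in warm iBAT (-0.91 ± 0.11). Klf14, a transcription factor, was lower in ingSAT with 2.05 ± 0.797 and 0.389 ± 0.183 CPM, a log2 fold change of -2.39 ± 0.52.

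Peg10, a gene derived from a retrotransposon, was lower in ingSAT (-1.11 ± 0.29) and pgVAT (-1.41 ± 0.50), and Zim1, next to Peg3, in iBAT at 10 °C (-0.75 ± 0.31) and pgVAT (-1.91 ± 0.71). With the single cold library of pgVAT that lacked epididymis genes, the values were -1.06 ± 0.63 for Peg10 and -1.76 ± 1.09 for Zim1, and neither was called. Phlda2 in pgVAT had 0, 0 and 0.0409 CPM at 22 °C and 0.141, 1.80 and 4.53 at 10 °C, and no fold is given against controls of at most 1 count. The 2 calls in brain at 10 °C moved with the control that held hepatocyte genes. Slc38a4 had a log2 fold change of -8.07 ± 3.01 with it and -0.14 ± 0.27 without it, and its call was lost. Slc22a18 had -4.94 ± 1.78 with it and -1.01 ± 0.33 without it, still called lower. Slc22a18 was lower in spinal cord too (-0.73 ± 0.33, groups overlapping), and Ddc, which makes dopamine and serotonin, was lower in warm liver (-0.69 ± 0.27, groups overlapping).

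Over the 8 tissues at 22 °C, the genes whose level was most like that of Nnat were Grhl1, Sfrp5, Dst, Gnai1 and Mkrn3, with a Pearson r of mean log2 CPM from 0.973 to 0.988 among 17184 genes. Over the 16 comparisons, the genes whose difference in mean log2 CPM was most like that of Nnat were Cdh4 (r = 0.941), Rtn1 (0.918), Nrep (0.907), Cys1 (0.90) and Inpp5k (0.898) among 12331 genes. Among the members the same r was 0.667 for Mest, 0.615 for Plagl1, 0.579 for Dlk1, 0.550 for Cdkn1c, 0.412 for Grb10, 0.390 for Igf2 and 0.0627 for Peg3. These are descriptions over 8 and 16 points. The 16 include bone marrow and liver at 34 °C, where Nnat was below the filter on low counts. Both sets of points include the brain control that held hepatocyte genes. The 2 quadriceps comparisons share their controls.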

How the data were processed

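Bulk RNA sequencing of 106 libraries in 31 groups was read from 4 tables. The authors aligned reads to mm10 with STAR and counted them per gene with HTSeq, and the deposited values are raw counts, whole numbers with no scaling. The submitters' processing notes name STAR 2.5.3a, HTSeq 0.6p1 and Picard 1.141. The strand setting of the counting is not given in the sources used here. Bone marrow, spinal cord and the 34 °C tissues were prepared with a stranded kit and the others with another kit, so levels are not compared between tables. Of 21647 identifiers in the largest table, 21583 matched a symbol. Here edgeR 4.0.16 (R 4.3.3) was run separately for 16 comparisons, each tissue against its controls: TMM scaling, average log2 CPM above 0, a two-sided quasi-likelihood F-test, and calls at p of at most 0.05 with a fold above 1.5. Reported CPM were TMM-scaled within a tissue and table. SE come from the spread between libraries. Scripts were tested on simulated counts. The members and gene lists were chosen with earlier results of these data known. Values per library are given for a member where it was called or its groups did not overlap at a mean of at least 1 CPM, and for Nnat throughout. Other imprinted genes are named if called in at least 2 comparisons or if they had the largest called change in one. Alternatives were DESeq2 1.42.0, edgeR's exact test, the adjusted p, library size only, 2 other filters, the replicate block, quadriceps controls by header, marked libraries left out, and each library left out in turn. The p-values measure the spread between libraries of a group, each of 1 or 2 mice.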

Additional observations from a re-analysis of the deposited data

Results flagged for a closer look

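Members above the filter were tested by Dixon's ratio in each group of 4 to 10 libraries, which gave 39 sets of a gene and a group. Sets of the same group share their libraries. In 3 of the 39 sets 1 library stood apart, where chance gives about 1 in 20. All were in spinal cord: Mest at 22 °C had a library at 19.2 CPM with the next at 26.2, H19 at 10 °C a library at 12.8 CPM with the next at 3.78, and Cdkn1c at 10 °C a library at 26.4 CPM with the next at 19.3.

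For 5 members the treated libraries were all below the controls in some tissues and all above them in another at 10 °C. These differences between tissues were not tested, and none of those above the controls was called. The share of all genes whose groups lie apart was not counted, so nothing is read from the number of members. Peg3 was below in iBAT (log2 fold change -1.18), liver (-0.57) and ileum (-0.37) and above in spleen (0.29). Mest was below in pgVAT (-2.19) and ileum (-0.66) and above in brain (0.29). Cdkn1c was below in ingSAT (-1.25) and above in ileum (0.36). Plagl1 was below in pgVAT (-1.73), ingSAT (-1.15), liver (-0.93) and ileum (-0.67) and above in brain (0.32). Grb10 was below in ingSAT (-0.63), ileum (-0.33) and iBAT (-0.25) and above in brain (0.17). The brain values include the control that held hepatocyte genes, and without it they were 0.19 for Mest, 0.14 for Plagl1 and 0.06 for Grb10.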

How the results depend on the processing

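No called value of a member changed sign under an alternative that was run. Signs of the other imprinted genes were compared only without the marked libraries: there Rasgrf1 in pgVAT, named after its values were seen, went from 3.06 ± 0.88 and a call to -0.04 ± 0.52 and none, with 1 cold library left. With the adjusted p, 4 members were lower at 10 °C, 3 were higher at 34 °C and Nnat was lower in 2 tissues, and of the other imprinted genes 4 were lower and 1 higher at 10 °C. With library size only, 2 members were lower at 34 °C and 14 other imprinted genes were higher there. Under this scaling the median log2 fold change of all genes at 10 °C was -0.18 in iBAT, 0.16 in quadriceps and 0.10 in brain. With TMM scaling it was -0.02, 0.01 and -0.02. In iBAT at 34 °C it was 0.30 with library size only and 0.02 with TMM. With a filter of at least 1 count, 8 other imprinted genes were lower and 11 higher at 34 °C. Without the marked libraries, which were chosen after seeing the data, 2 other imprinted genes were higher at 10 °C. Leaving out 1 library at a time (100 fits, bone marrow not refitted) gave 13 to 17 members lower and 0 to 1 higher at 10 °C (1 without 10 °C replicate 2 of spleen), 1 to 2 lower (2 without 22 °C replicate 1 or 34 °C replicate 1 or 2 of liver) and 4 to 6 higher at 34 °C, and Nnat lower in 6 tissues each time. For the other imprinted genes it gave 13 to 17 lower and 3 to 6 higher at 10 °C, and 3 to 5 lower and 6 to 10 higher at 34 °C. The call of Mest in ileum was also lost with DESeq2. Calls of members that only an alternative made, apart from those made by leaving out 1 library, are given with the genes in the text.

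In 0 comparisons did all libraries with the same replicate number deviate together. The correlation of their deviations ran from -0.08 to 0.42 in ileum and from -0.69 to 0.09 in spleen. With so few libraries this cannot exclude a pairing, and the main fits treat the libraries as unpaired. With the replicate block, 17 members were lower and 0 higher at 10 °C, Nnat was lower in 6 tissues, and 11 other imprinted genes were lower and 4 higher. The block moved the calls over all genes from 1179 to 810 in pgVAT and from 393 to 177 in brain. In spinal cord it drops 2 libraries without a partner. Quadriceps and the 34 °C columns carry no such numbers, and the planned subsets of the quadriceps controls by title were not run for the same reason. Low counts limit Nnat in bone marrow, in quadriceps at 10 °C, in liver at 34 °C and, with 33 to 76 counts per library, in liver at 10 °C.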
